A study of Mus musculus with 12 samples.

Results

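The genes described here are 36 mouse genes of cholesterol synthesis, cholesterol transport and the closely linked synthesis of fatty acids. They were taken by gene name from the deposited count matrix, which lists 21312 loci, 19336 of them with a gene name, under the condition that the mean deposited count over the 12 libraries was at least 10. All 36 were in the matrix, all 36 met the condition, and all 36 were among the 15656 named genes with enough counts to be tested. The lowest mean counts were those of Tm7sf2 (66.2), Nr1h3 (81.0) and Abcg1 (91.4).

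The libraries are RNA sequencing libraries from hippocampal cultures of WT pups, with no strain given in the labels, dissected at postnatal day 4 and labelled as neuronal cultures. After 8 days in culture, the cells were given vehicle or 20 µM DAPT, an inhibitor of γ-secretase, overnight, and then vehicle or 20 nM of the soluble ectodomain of ErbB4 (sErbB4), a recombinant form of a receptor that binds neuregulin 1, for 4 h before RNA was taken. γ-Secretase is the protease complex that cleaves Notch, neuregulin 1 and many other membrane proteins within the membrane, so DAPT does not act on neuregulin 1 alone. The 4 groups, vehicle, sErbB4, DAPT and DAPT + sErbB4, had 3 libraries each, which the study describes as platings from several mice and litters. All 4 groups are WT cultures, and the vehicles were DMSO for DAPT and PBS for sErbB4.

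Cells make cholesterol from acetyl-CoA along the mevalonate pathway and the sterol steps that follow squalene. SREBP transcription factors, encoded by Srebf1 and Srebf2, are held in the endoplasmic reticulum by Insig proteins when sterols are plentiful and are carried to the Golgi for cleavage by Scap when sterols are scarce. The LXR receptors, Nr1h2 and Nr1h3, sense oxysterols and drive efflux genes such as Abca1 and Abcg1, and also Srebf1. In the brain nearly all cholesterol is made locally, astrocytes pass it to neurons on particles that carry apolipoprotein E, and neurons dispose of it through the hydroxylase encoded by Cyp46a1.

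DAPT lowered Srebf1 to less than the level of any library without DAPT. For the 35 other genes, the estimated mean effect over both settings was at most 0.30 on the log2 scale, up or down. Srebf1 was the only one of the 36 genes to be called, which needed both an adjusted p under 0.05 and a log2 fold change beyond 0.32 up or down (the fold limit), when the libraries with DAPT were compared with those without (the mean DAPT effect). That is 1 of 36 genes, against 13.2% of all genes tested. In the separate comparisons, 2 of the 36 genes were called for DAPT against vehicle (Srebf1 and Abca1, where 11.6% of all genes were called) and 3 for DAPT + sErbB4 against sErbB4 (Srebf1, Npc1 and Scd1, where 11.7% were called). In each of these 5 calls the level was lower with DAPT.

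Smaller differences ran in both directions. On the adjusted p alone, 6 of the 36 genes were higher with DAPT and 13 were lower in the mean DAPT effect, beside 18.1% and 19.7% of all genes tested. The corresponding counts were 2 higher and 9 lower for DAPT against vehicle (10.3% and 13.3% of all genes), and 5 higher and 9 lower for DAPT + sErbB4 against sErbB4 (11.1% and 13.5%). The median log2 fold change of the 36 genes in the mean DAPT effect was -0.025, and that of all genes tested was 0.0097.

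Counts of all named loci were scaled with TMM factors and expressed as CPM (counts-per-million). Over 12534 genes with a mean count above 50, the deposited counts did not rise with median transcript length (Spearman correlation -0.17). CPM is therefore read here as a level per length, which the correlation alone does not establish. Levels are compared between genes only on that understanding. Library totals ran from 36518802 to 54350270 counts, of which 18697788 to 30777171 fell on named loci and 31.4 to 44.6% of those on Rn45s, a ribosomal RNA precursor. On the first principal component (36.5% of the variance), the 6 libraries with DAPT lay on the opposite side from the 6 without. On the second (11.6%), the library sErbB4 1 stood apart at 23.8, followed by Vehicle 3 at 10.4. Of the 18 synthesis genes, 15 had their lowest value of the sErbB4 group in sErbB4 1, and 11 had their highest in sErbB4 3. In bulk RNA, fewer cells of a type and less RNA per cell cannot be told apart.

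The regulators were led by Srebf1 (chr11:60199089-60222581, minus strand, mm10), whose SREBP1 proteins favour the genes of fatty acid synthesis. Its level was 69.7, 67.0 and 66.3 CPM in the vehicle libraries, 65.0, 66.8 and 66.1 in sErbB4, 31.4, 31.2 and 28.9 in DAPT, and 27.5, 28.1 and 28.1 in DAPT + sErbB4. The libraries with and without DAPT did not overlap, and the gap between them was many times wider than the spread within a group. Group means were 67.7 ± 1.77 CPM with vehicle and 30.5 ± 1.36 with DAPT (SD, n = 3), so that Srebf1 fell by 55% (log2 fold change -1.15, SE 0.040, 95% interval -1.24 to -1.06, adjusted p = 9.7e-09 in edgeR's quasi-likelihood test with Benjamini-Hochberg adjustment). In the presence of sErbB4, from 66.0 ± 0.924 to 27.9 ± 0.329 CPM, it fell by 57.7% (log2 fold change -1.24, SE 0.040, adjusted p = 4.7e-09). The mean DAPT effect was -1.20 on the log2 scale (95% interval -1.26 to -1.13, adjusted p = 1.4e-10), and the effects without and with sErbB4 differed by -0.091 (95% interval -0.22 to 0.034, adjusted p = 1).

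**Figure D1:**
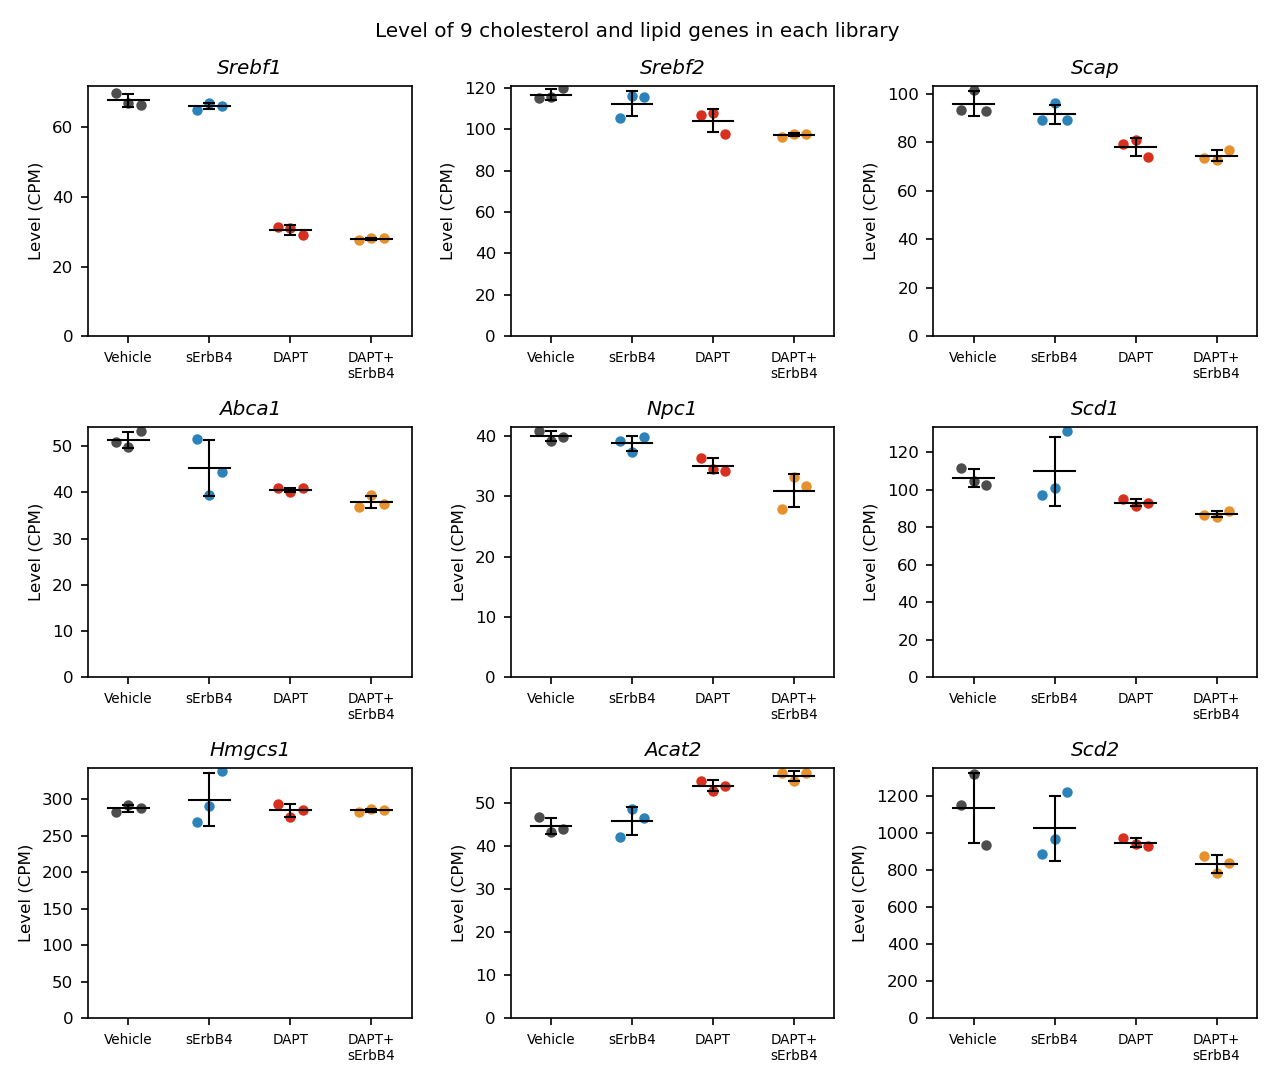
Level of 9 genes in each of the 12 libraries (y axis, CPM, starting at 0; x axis, the 4 groups). Points are libraries, and the horizontal line and bar are the group mean ± SD (n = 3). The 6 libraries with DAPT sit between 27.5 and 31.4 CPM for Srebf1, below the 65.0 to 69.7 CPM of the 6 without, while the levels of Hmgcs1 overlap in the 4 groups.

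The other regulators moved less. Srebf2, whose product favours the genes of cholesterol synthesis, was at 115.0, 115.5 and 119.7 CPM with vehicle, 105.3, 116.0 and 115.4 with sErbB4, 106.8, 107.9 and 97.7 with DAPT, and 96.4, 97.8 and 97.9 with DAPT + sErbB4. The sErbB4 1 library lay below 2 of the DAPT libraries, so the groups overlapped. The mean DAPT effect on Srebf2 was -0.19 on the log2 scale (95% interval -0.26 to -0.11, edgeR adjusted p = 0.0013), inside the fold limit. Scap, the escort of both SREBPs, was lower in every library with DAPT (72.7 to 80.9 CPM) than in any without (89.0 to 101.6 CPM), with a mean effect of -0.30 (95% interval -0.38 to -0.22, adjusted p = 6.6e-05) that also stayed inside the fold limit. Without the library DAPT 2, Scap was called for DAPT against vehicle, and without DAPT + sErbB4 3 it was called for DAPT + sErbB4 against sErbB4.

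In the same 6 libraries with DAPT, the summed level of 8 markers of dividing cells was 24.6 to 29.6 CPM, against 63.1 to 77.0 in the 6 without, and that of 10 Notch pathway genes was 199.7 to 217 against 285 to 317. Their part in the lower levels of Srebf1, Scap and Srebf2 was not tested.

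Insig1, a retention protein whose own gene is a classical SREBP target, was at 69.4, 63.7 and 68.3 CPM with vehicle, 60.5, 63.8 and 63.6 with sErbB4, 69.1, 66.2 and 69.7 with DAPT, and 62.1, 62.3 and 63.5 with DAPT + sErbB4. The levels with and without DAPT overlapped, and the mean effect was 0.013 (95% interval -0.053 to 0.078, edgeR adjusted p = 0.79). Its relative Insig2 was higher in all 6 libraries with DAPT (mean effect 0.17, adjusted p = 0.012). The LXR genes gave mean effects of 0.075 for Nr1h2 (95% interval 0.0028 to 0.15, adjusted p = 0.098) and 0.18 for Nr1h3 (95% interval -0.091 to 0.46, adjusted p = 0.29). Nr1h3 was expressed at only 2.09 to 3.98 CPM, and its interval is wide enough to hold a change beyond the fold limit.

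Promoter windows of 250 bases before an annotated start were available for 28 of the 36 genes from RefSeq (GRCm38.p6). Abcg1, Fdft1, Fdps, Npc1, Scd1, Scd2, Sqle and Stard4 had no window and were not searched. The windows of Abca1, Fasn, Srebf1 and Hmgcs1 are shown. The first 3 hold the letters of a known LXR response element, TGACC followed after 4 bases by GTAACC. These 3 genes differ in the direction of their change, and the part of LXR in it was not tested. Hmgcs1, with levels that overlapped in the 4 groups, holds the sterol regulatory element core TCACCCCA, the SREBP site. Both strands were searched. Capitals mark the LXR element in the first 3 windows and the TCACCCCA core in the last, and in none of these 4 windows did the marked letters overlap another of the searched motifs.
Srebf1, chr11:60210472-60210721, minus strand: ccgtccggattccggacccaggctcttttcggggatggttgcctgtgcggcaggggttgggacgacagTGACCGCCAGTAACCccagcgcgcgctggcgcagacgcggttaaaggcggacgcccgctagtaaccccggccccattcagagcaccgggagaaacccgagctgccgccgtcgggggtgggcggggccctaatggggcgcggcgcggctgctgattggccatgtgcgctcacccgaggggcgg
Abca1, chr4:53159896-53160145, minus strand: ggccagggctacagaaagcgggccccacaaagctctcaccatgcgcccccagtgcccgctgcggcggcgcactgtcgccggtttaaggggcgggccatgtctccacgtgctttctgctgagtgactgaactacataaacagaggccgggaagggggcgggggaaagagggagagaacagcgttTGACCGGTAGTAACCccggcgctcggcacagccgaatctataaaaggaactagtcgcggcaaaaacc
Fasn, chr11:120824548-120824797, minus strand: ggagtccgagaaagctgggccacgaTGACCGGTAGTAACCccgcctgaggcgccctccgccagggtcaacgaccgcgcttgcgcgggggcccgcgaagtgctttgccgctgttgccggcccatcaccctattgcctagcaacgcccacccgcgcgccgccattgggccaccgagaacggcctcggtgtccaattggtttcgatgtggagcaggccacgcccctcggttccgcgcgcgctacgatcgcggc
Hmgcs1, chr13:119690101-119690350, plus strand: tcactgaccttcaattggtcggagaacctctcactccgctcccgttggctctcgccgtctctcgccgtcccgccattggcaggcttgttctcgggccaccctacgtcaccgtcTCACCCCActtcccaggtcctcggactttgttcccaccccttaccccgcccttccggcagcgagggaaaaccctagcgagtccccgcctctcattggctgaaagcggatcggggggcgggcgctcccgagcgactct

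The LXR element was found in 12 of 32851 mouse promoter windows (0.0365%), and among the 28 genes with a window it was in those of Abca1, Fasn and Srebf1. The letters were chosen with the calls known, from elements described for Srebf1 and Abca1, so the match of these 2 genes is a description of their sequence and no evidence of a shared response. Abca1 and Srebf1 were lower with DAPT, and Fasn was higher. The sterol regulatory element core was in 1.34% of all windows and in those of Apoe, Hmgcs1 and Srebf2. A CCAAT box (letters CCAAT) was in 33.8% of all windows and in those of 22 of the 28 genes. The core bound by the Notch partner RBPJ (letters TGGGAA) was in 21.6% of all windows. It was in those of 7 of the 28 genes (Hmgcs1, Mvk, Nr1h3, Nsdhl, Sc5d, Scap and Srebf1). Sc5d, Scap and Srebf1 were lower in the mean DAPT effect on the adjusted p alone, Nsdhl was higher, and the others did not pass it. All these percentages are per window, whereas a gene was counted when any of its windows held the letters. The Srebf1 window shown is 1 of 3 for that gene. It lies within the annotated gene, shares no base with an annotated exon in GENCODE M21, and precedes the start of the shorter transcript known as SREBP1c. The 2 windows of Srebf1 that hold TGGGAA are the others, and values per gene do not show which start was used.

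The 18 enzymes of synthesis had no call in any comparison, and their summed level was nearly the same in the 4 groups. The sum ran from 1055 to 1079 CPM with vehicle, from 998 to 1154 with sErbB4, from 1035 to 1061 with DAPT, and from 1056 to 1059 with DAPT + sErbB4. Its 11 sterol steps summed to 474 to 477 CPM with vehicle, 433 to 490 with sErbB4, 444 to 453 with DAPT and 438 to 445 with DAPT + sErbB4. In the same order, its 7 mevalonate steps, with Hmgcs1 the most abundant, summed to 582 to 603, 564 to 664, 591 to 608 and 611 to 621 CPM. On the adjusted p alone, 3 of the 18 were higher and 6 lower in the mean DAPT effect, beside 18.1% and 19.7% of all genes tested. A negative log2 fold change was found for 12 of the 18, beside 48.1% of all genes tested. The median log2 fold change of the 18 was -0.052.

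Among the 7 mevalonate steps, Hmgcs1 is the most abundant and encodes HMG-CoA synthase. It was at 282.3, 291.6 and 287.3 CPM with vehicle, 268.4, 290.4 and 338.6 with sErbB4, 293.8, 276.0 and 284.8 with DAPT, and 282.4, 286.3 and 284.8 with DAPT + sErbB4. The lowest and the highest values both belonged to sErbB4 libraries, and the other groups lay between them. The mean DAPT effect was -0.042 on the log2 scale (95% interval -0.14 to 0.061, edgeR adjusted p = 0.54), an interval inside the fold limit on both sides.

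Acat2, the cytosolic thiolase at the head of the pathway, had the largest increase of the 36 in the mean DAPT effect. It ran from 42.2 to 48.7 CPM without DAPT and from 52.8 to 57.0 with DAPT, with no overlap and a mean effect of 0.28 (95% interval 0.20 to 0.37, edgeR adjusted p = 1e-04). Fdps, which makes farnesyl diphosphate, was also higher (mean effect 0.14, adjusted p = 0.012), and Idi1, the isomerase before it, was lower (-0.19, adjusted p = 0.0094). The kinases Mvk (-0.063) and Pmvk (-0.082) and the decarboxylase Mvd (0.072) did not pass the adjusted p.

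Of the 11 sterol steps, 5 were lower and 1 was higher in the mean DAPT effect on the adjusted p alone. Of all genes tested, 19.7% were lower and 18.1% higher in this way. Sqle, squalene epoxidase and a rate-limiting step, was at 106.0, 108.8 and 107.0 CPM with vehicle, 99.6, 105.4 and 109.8 with sErbB4, 110.3, 108.3 and 109.4 with DAPT, and 106.0, 104.5 and 105.6 with DAPT + sErbB4. The libraries with and without DAPT overlapped, with a mean effect of 0.017 (95% interval -0.042 to 0.076, edgeR adjusted p = 0.67). Dhcr7, which completes cholesterol by reducing its immediate precursor, was at 36, 36.8 and 33.7 CPM with vehicle, 31.6, 36.2 and 38.4 with sErbB4, 32.5, 33.6 and 29.6 with DAPT, and 31.1, 30.8 and 32.4 with DAPT + sErbB4. The sErbB4 1 library reached down into the range with DAPT, and the mean effect was -0.16 (95% interval -0.27 to -0.055, adjusted p = 0.022).

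The lanosterol demethylase Cyp51 was the only synthesis enzyme with no overlap and a lower level, at 56.4 to 61 CPM with DAPT and 66.7 to 78.3 without (mean effect -0.26, edgeR adjusted p = 0.00049). Hsd17b7 (-0.22, adjusted p = 0.0048), Lss (-0.20, adjusted p = 0.012) and Sc5d (-0.16, adjusted p = 0.0069) were lower as well. Nsdhl, which works beside Hsd17b7 in removing the methyl groups of the sterol ring, was higher (0.16, adjusted p = 0.0058). Fdft1 (-0.022), Msmo1 (-0.028), Ebp (0.0079) and Tm7sf2 (-0.25) did not pass. Tm7sf2 was low, at 1.05 to 4.89 CPM, and varied widely within each group, and its interval of -0.98 to 0.48 leaves its direction unknown.

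**Figure D2:**
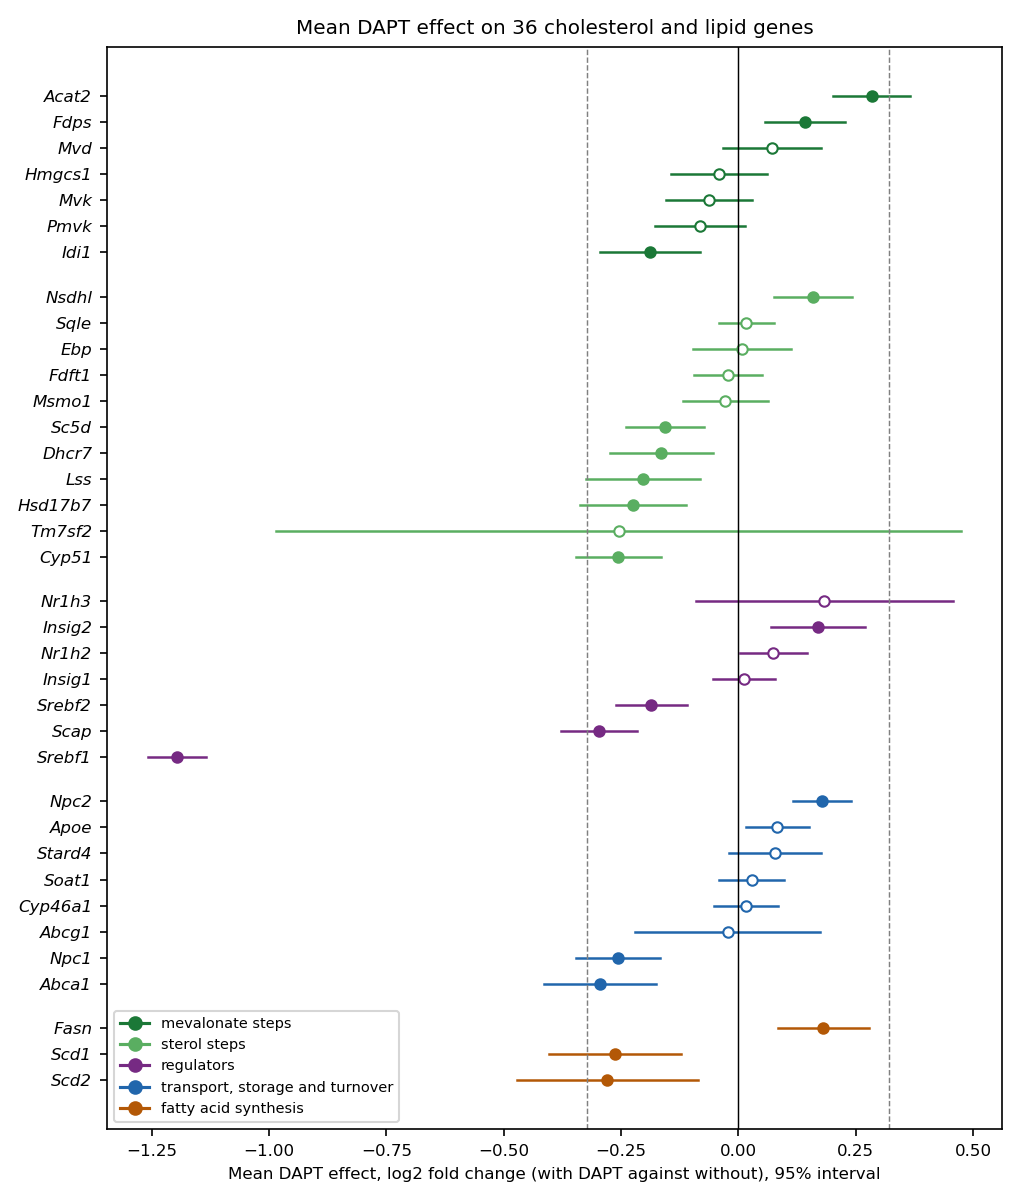
Mean DAPT effect on each of the 36 genes (x axis, log2 fold change of libraries with DAPT against libraries without; points are estimates, bars 95% intervals), grouped by role. Filled points have an adjusted p under 0.05 and dashed lines mark the fold limit. Srebf1 at -1.20 is the only filled point beyond a dashed line, and the other filled points lie between -0.30 and 0.28.

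Among the 8 genes of transport, storage and turnover, Npc2 was higher and Abca1 and Npc1 were lower on the adjusted p alone in the mean DAPT effect. Of all genes tested, 18.1% were higher and 19.7% lower by the same measure. Abca1 (chr4:53030787-53159895, minus strand, mm10), which loads cholesterol onto lipid-poor apolipoproteins, was at 50.9, 49.7 and 53.3 CPM with vehicle, 51.5, 39.5 and 44.5 with sErbB4, 40.9, 40.1 and 40.8 with DAPT, and 36.8, 39.4 and 37.5 with DAPT + sErbB4. The DAPT libraries lay below all vehicle libraries, but sErbB4 2 lay within the range of the 6 libraries with DAPT. Abca1 fell by 20.9% for DAPT against vehicle (log2 fold change -0.34, 95% interval -0.51 to -0.17, edgeR adjusted p = 0.0080), and for DAPT + sErbB4 against sErbB4 the log2 fold change was -0.25 (adjusted p = 0.034), inside the fold limit. That value was -0.15 without sErbB4 1 (adjusted p = 0.084) and -0.34, past the fold limit, without sErbB4 2 (adjusted p = 0.0029). In 7 of 15 alternatives this comparison missed the adjusted p, which reached 0.11 in an edgeR fit on the compared libraries alone. The call for DAPT against vehicle was lost, with a log2 fold change of -0.31, without Vehicle 3, and was also lost with limma (-0.30) and with unnamed loci kept (-0.32). Its partner Abcg1, at 3.11 to 4.09 CPM, gave a mean effect of -0.023 (95% interval -0.22 to 0.17).

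Npc1, the membrane protein that moves cholesterol out of lysosomes, was at 40.8, 39.2 and 39.8 CPM with vehicle, 39.1, 37.4 and 39.8 with sErbB4, 36.4, 34.6 and 34.1 with DAPT, and 27.8, 33.2 and 31.8 with DAPT + sErbB4. Each library with DAPT was below each library without. Npc1 fell by 20.1% for DAPT + sErbB4 against sErbB4 (log2 fold change -0.32, 95% interval -0.45 to -0.20, edgeR adjusted p = 0.0019), just past the fold limit of 0.32 on this scale, and gave -0.19 for DAPT against vehicle (adjusted p = 0.036). The fold passed the limit only narrowly, and it no longer did without DAPT + sErbB4 1 (-0.25), sErbB4 3 (-0.30) or sErbB4 1 (-0.32), with limma (-0.30) or among genes of at least 1 CPM (-0.32). Npc2, the soluble lysosomal protein that hands cholesterol to NPC1, was higher with DAPT (95.9 to 101.7 CPM) than without (83.8 to 91.6 CPM) in all libraries, with a mean effect of 0.18 (adjusted p = 0.00045). The 2 partners of the lysosomal exit step thus differed in opposite directions.

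Apoe, the main lipoprotein component of the brain, was by far the most abundant of the 36 genes. It was at 5927, 5601 and 5491 CPM with vehicle, 5567, 5538 and 5591 with sErbB4, 6481, 6285 and 5701 with DAPT, and 5813, 5590 and 5862 with DAPT + sErbB4. The groups overlapped, and the mean effect of 0.083 missed the limit (95% interval 0.016 to 0.15, edgeR adjusted p = 0.052). With limma the mean effect was 0.18 (adjusted p = 0.0028), and without DAPT 3 it was 0.115 (adjusted p = 0.0019). Cyp46a1, a neuronal gene, was at 39.5, 42.9 and 43.1 CPM with vehicle, 44.6, 42.7 and 44.6 with sErbB4, 42.5, 42.4 and 40.4 with DAPT, and 44.8, 44.1 and 46.1 with DAPT + sErbB4. Its mean effect was 0.016 (95% interval -0.052 to 0.084, adjusted p = 0.73), with the levels with and without DAPT in one range.

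The genes of fatty acid synthesis, classical targets of SREBP1, did not share a direction. Scd1, a stearoyl-CoA desaturase, was at 111.6, 104.7 and 102.4 CPM with vehicle, 97.1, 100.8 and 131.1 with sErbB4, 94.9, 91.4 and 92.7 with DAPT, and 86.6, 85.5 and 88.6 with DAPT + sErbB4. Every library with DAPT was below every library without, and sErbB4 3 was far above its group. Scd1 fell by 20.7% for DAPT + sErbB4 against sErbB4 (log2 fold change -0.34, 95% interval -0.53 to -0.14, edgeR adjusted p = 0.019), and the log2 fold change was -0.19 for DAPT against vehicle (adjusted p = 0.16). Without sErbB4 3 the log2 fold change was -0.19 (adjusted p = 0.014), inside the fold limit, and without DAPT + sErbB4 1 or DAPT + sErbB4 2 the adjusted p rose to 0.055 and 0.062. The call was also lost with limma (-0.29) and in a fit on the 6 compared libraries (adjusted p = 0.071).

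Scd2, the main desaturase of the brain, was at 1147, 1315 and 936 CPM with vehicle, 887, 966 and 1222 with sErbB4, 974.5, 939.9 and 928 with DAPT, and 877, 784 and 836 with DAPT + sErbB4. The libraries without DAPT varied widely, and Vehicle 3, sErbB4 1 and sErbB4 2 lay within the range of the libraries with DAPT. The mean effect was -0.28 (95% interval -0.47 to -0.087, edgeR adjusted p = 0.026), inside the fold limit, and it passed that limit without Vehicle 3 (-0.34) or without sErbB4 1 (-0.33), the 2 libraries that stood apart on the second component. It was smaller, and missed the adjusted p, in 7 of 20 alternatives. Among them were limma (-0.19, adjusted p = 0.083) and edgeR without sErbB4 3 (-0.21, adjusted p = 0.053) or Vehicle 2 (-0.22, adjusted p = 0.063). The others left out Vehicle 1, DAPT 2, DAPT 3 or DAPT + sErbB4 2 (adjusted p = 0.052 to 0.062). Fasn, fatty acid synthase, was higher in every library with DAPT (89.8 to 97.9 CPM) than in any without (71.9 to 88.1 CPM), with a mean effect of 0.18 (adjusted p = 0.0071).

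Over the 36 genes, 4 were higher in all 6 libraries with DAPT than in all 6 without (Acat2, Fasn, Insig2 and Npc2) and 5 were lower (Cyp51, Npc1, Scap, Scd1 and Srebf1). Of all genes tested, 8.6% were higher in this way and 11.8% lower.

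**Figure D3:**
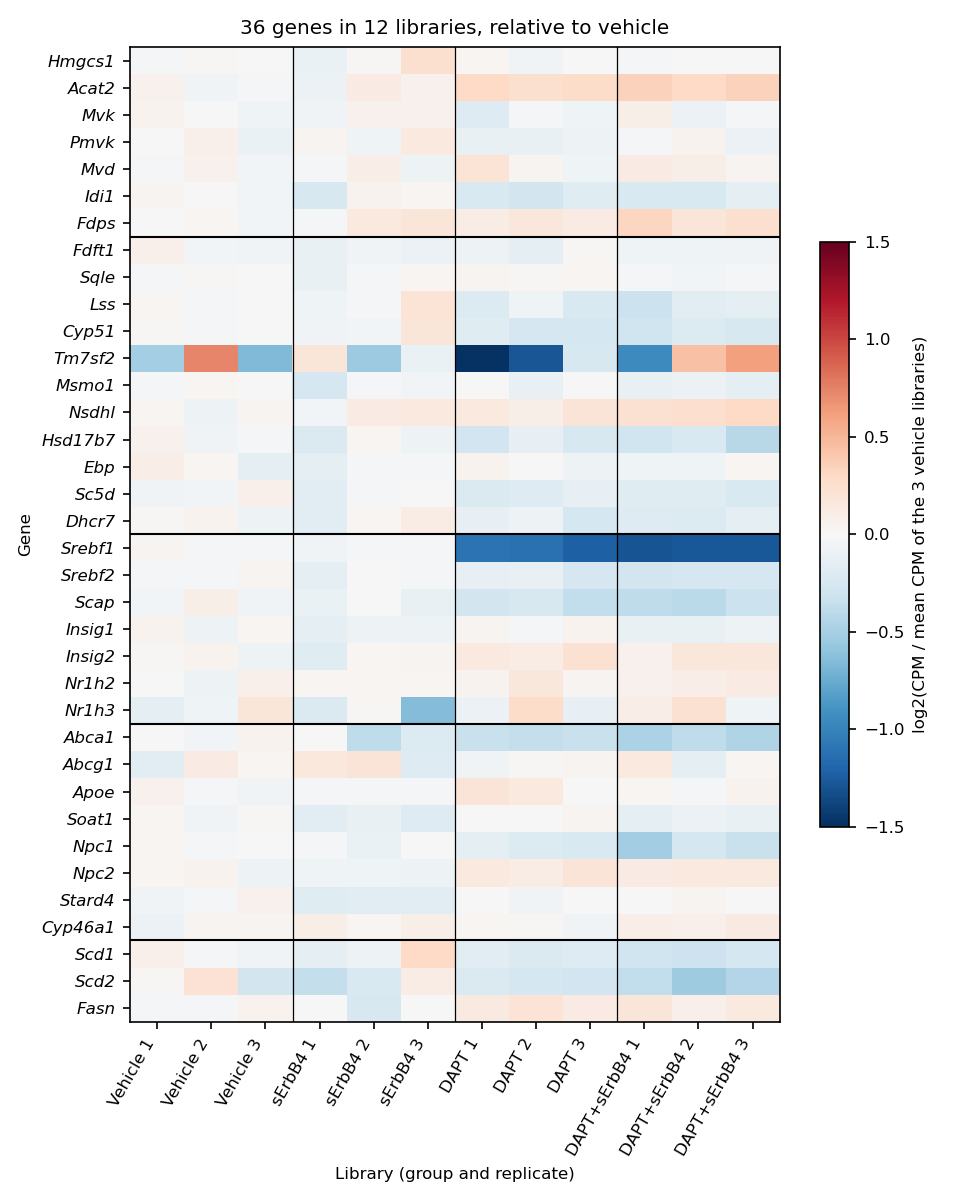
Level of the 36 genes (rows, grouped by role) in the 12 libraries (columns), as log2 of CPM over the mean CPM of the 3 vehicle libraries. Blue is lower and red higher than vehicle. The row of Srebf1 turns uniformly dark blue in the 6 libraries with DAPT, and the row of Tm7sf2, with 1.05 to 4.89 CPM, varies within groups as much as between them.

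The DAPT effect was measured a second time in cultures that also received sErbB4, with no library in common between the comparisons. None of the 36 genes was called for a difference between the effects with and without sErbB4, where 0.00639% of all genes tested (1 gene) were called. By edgeR's unadjusted p under 0.05, 1 of the 36 was found (Stard4, difference 0.20, 95% interval 0.0028 to 0.39, unadjusted p = 0.047, adjusted p = 1), beside 3.61% of all genes. Limma and DESeq2 called 0 of the 36 as well. The largest estimated difference was that of Tm7sf2 (1.17), with a 95% interval of -0.29 to 2.63.

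**Figure D4:**
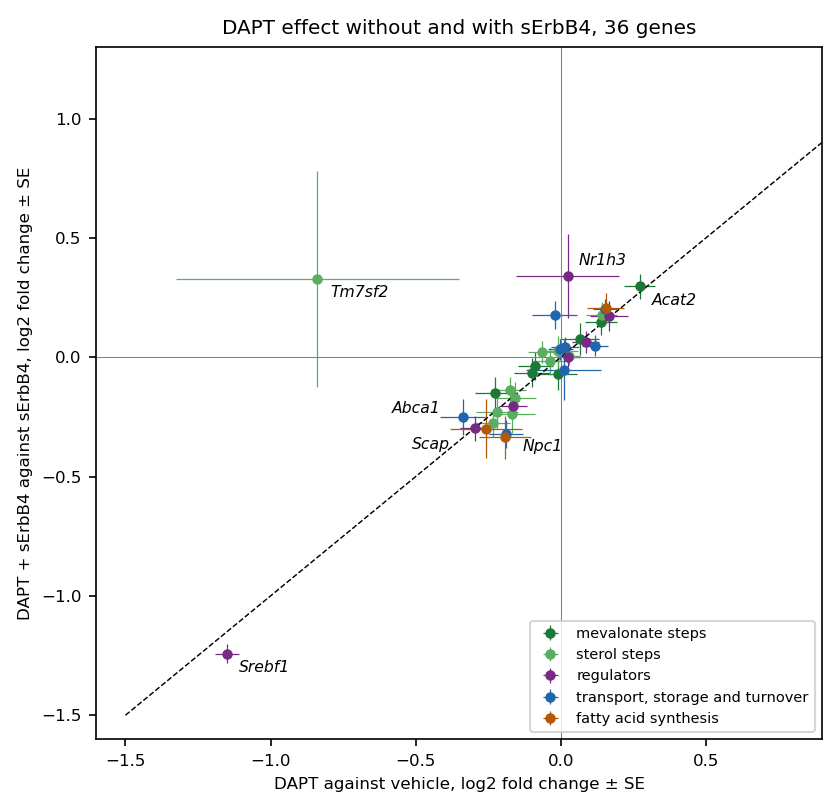
Log2 fold change of DAPT against vehicle (x axis) and of DAPT + sErbB4 against sErbB4 (y axis) for the 36 genes, with bars of ± SE and a dashed line of equal effects. Srebf1 lies near the line at -1.15 and -1.24, most genes gather near 0, and Tm7sf2 lies farthest from the line with the longest bars.

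sErbB4 for 4 h moved none of the 36 genes past the limits. For sErbB4 against vehicle, edgeR, limma and DESeq2 each called 0 of the 36, and edgeR called 0.0319% of all genes tested. At an unadjusted p under 0.05, 4 of the 36 were lower (Abca1, Insig1, Soat1 and Stard4), beside 7.56% of all genes. Soat1, which esterifies cholesterol for storage, was at 32.0, 30.1 and 31.7 CPM with vehicle and 28.0, 29.0 and 27.3 with sErbB4, and in the cultures with DAPT at 31.3, 31.3 and 32.2 without sErbB4 and 28.5, 29.4 and 28.8 with it. The sErbB4 libraries were lower in both settings without overlap, with log2 fold changes of -0.16 (95% interval -0.24 to -0.074, edgeR adjusted p = 0.38) and -0.13 (95% interval -0.21 to -0.048, adjusted p = 0.35), neither of which passed the adjustment.

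Stard4, a cytosolic sterol carrier, was at 11.2, 11.4 and 12.2 CPM with vehicle, 10.2, 10.4 and 10.4 with sErbB4, 11.5, 11.2 and 11.5 with DAPT, and 11.5, 11.9 and 11.6 with DAPT + sErbB4. The sErbB4 libraries were below all others, with a log2 fold change of -0.17 against vehicle (95% interval -0.30 to -0.026, edgeR adjusted p = 0.61), while DAPT + sErbB4 against DAPT gave 0.034 (95% interval -0.11 to 0.18). Insig1 gave -0.10 for sErbB4 against vehicle (adjusted p = 0.63) and -0.13 for DAPT + sErbB4 against DAPT (adjusted p = 0.41). Abca1 gave -0.19 (adjusted p = 0.62) and -0.099 (adjusted p = 0.77) in the same order, and the first of these was -0.29 without sErbB4 1 and -0.097 without sErbB4 2.

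For DAPT + sErbB4 against DAPT, edgeR, limma and DESeq2 called none of the 36 genes, and edgeR called 0% of all genes tested. At an unadjusted p under 0.05 there were 8 of the 36 (Apoe, Cyp46a1, Insig1, Npc1, Nsdhl, Soat1, Srebf1 and Tm7sf2), beside 9.21% of all genes. The log2 fold change of Srebf1 in this comparison was -0.13 (95% interval -0.22 to -0.037, adjusted p = 0.40). In the comparison of sErbB4 with DAPT, which shares its libraries with those above, Srebf1 was the 1 gene of the 36 called, beside 10.1% of all genes. On the adjusted p alone there were 9 of the 36, beside 20.9% of all genes.

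Of 71 further genes of the same pathways, 70 were in the matrix and 69 were tested, and 2 rose and 7 fell in the mean DAPT effect, where 13.2% of all genes were called. No gene was called among 10 other genes of sterol and isoprenoid synthesis or 6 of SREBP processing and sterol sensing.

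Of 15 other genes of fatty acid synthesis and desaturation, 5 fell and 12 had a negative log2 fold change, beside 13.2% of all genes called and 48.1% negative. Their summed level was 1552 to 1722 CPM in the libraries without DAPT and 1244 to 1347 CPM in those with it. Elovl2, which elongates polyunsaturated fatty acids, was at 34.8, 31.7 and 32.4 CPM with vehicle, 30.9, 32.2 and 33.0 with sErbB4, 17.1, 17.0 and 17.4 with DAPT, and 15.3, 15.8 and 17.4 with DAPT + sErbB4, and fell by 48.7% (log2 fold change -0.96, SE 0.038, edgeR adjusted p = 6.9e-09). Thrsp, a regulator of lipid synthesis known as Spot14, was at 183, 171 and 159 CPM with vehicle, 168, 162 and 173 with sErbB4, 91.4, 93.4 and 86.0 with DAPT, and 87.9, 80.9 and 87.8 with DAPT + sErbB4, and fell by 48.1% (-0.95, SE 0.040, adjusted p = 1.5e-08). For both genes the ranges with and without DAPT were far apart. Mid1ip1, a relative of Thrsp that activates acetyl-CoA carboxylase (-0.39, adjusted p = 1.8e-06), the desaturase gene Fads2 (-0.39, adjusted p = 6.6e-07) and the elongase gene Elovl5 (-0.37, adjusted p = 5.1e-06, named after its value was seen) fell less.

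In the lipoprotein receptors, 1 of 9 genes fell, Vldlr, a receptor for apolipoprotein E and reelin (-0.42, edgeR adjusted p = 2.2e-06). Among 12 efflux, apolipoprotein and LXR target genes, 2 rose, the lysosomal transporter gene Abca5 (0.52, adjusted p = 7.4e-05) and Apod, the gene of apolipoprotein D (0.43, adjusted p = 4.5e-05). Among 17 tested genes of esters, droplets, intracellular transfer and oxysterols, 1 fell, Lcat, which esterifies cholesterol on lipoproteins (-0.41, adjusted p = 3.2e-05).

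**Figure D5:**
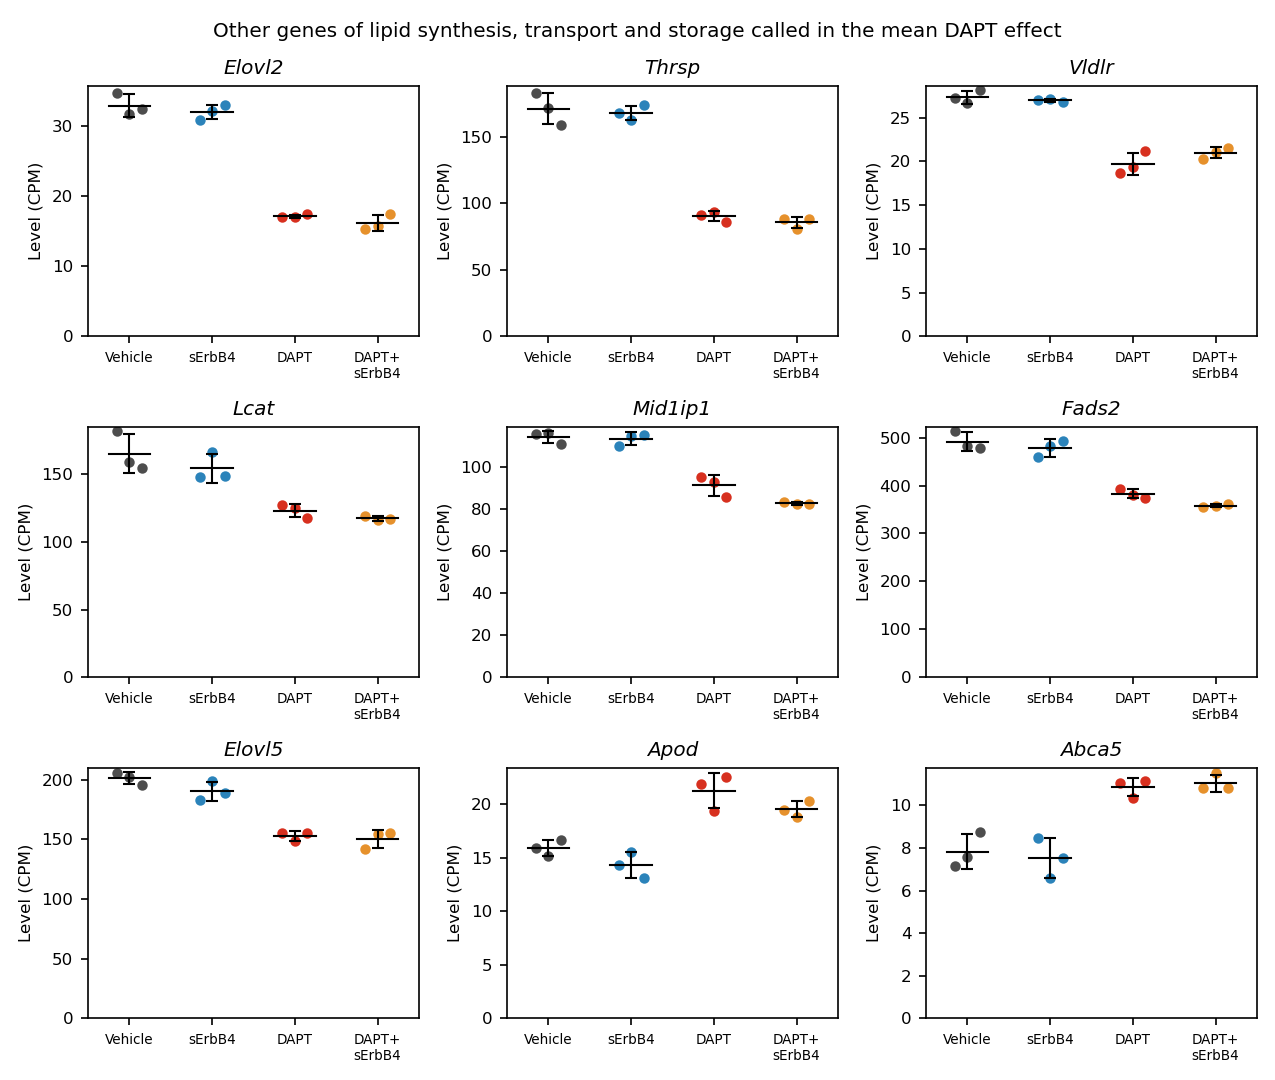
Level of the 9 further lipid genes called in the mean DAPT effect, in each library (y axis, CPM, starting at 0; x axis, the 4 groups; points are libraries, bars mean ± SD, n = 3). Elovl2 and Thrsp show the widest separation, with 15.3 to 17.4 against 30.9 to 34.8 CPM for Elovl2, and Apod and Abca5 are the 2 that rose.

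Markers of several cell types moved with DAPT in the same libraries, and the counts of markers that follow stand beside 13.2% of all genes called in the mean DAPT effect. The cultures, labelled as neuronal, held astrocyte RNA as well as neuronal RNA. The summed level of 11 neuron markers was 1488 to 1764 CPM in the 6 libraries without DAPT and 1759 to 2034 CPM in the 6 with it, and 4 of the 11 rose in the mean DAPT effect (Snap25, Syt1, Stmn2 and Nefl). The summed level of 11 astrocyte markers was 6096 to 7158 CPM without DAPT and 6662 to 7461 CPM with it, and most of it was Gfap. Of these 11, 2 rose, with Gjb6 the most at 0.93 on the log2 scale, and 4 fell, with Fgfr3 the most at -0.79.

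The widest separations were in lists of immature and dividing cells. All 8 markers of dividing cells fell, by 1.22 to 1.65 on the log2 scale. Of 9 radial glia and progenitor markers 5 fell, with Fabp7 at -1.89 on the log2 scale, and the summed level was 4360 to 5046 CPM without DAPT and 2452 to 2786 with it. Most of the fall in that sum was Fabp7 (means of 2784 CPM without DAPT and 748 with it). Vim was at 1096 and 1174 CPM in the same order, and 4 of the 9 markers had a positive log2 fold change. Of 8 markers of oligodendrocyte precursors 4 fell (Olig1, Olig2, Pdgfra and Cspg4), and the summed level was 1045 to 1135 CPM without DAPT and 568 to 641 with it. Most of the fall in that sum was Olig1 (means of 700 CPM without DAPT and 276 with it). Gpr17 was the 1 marker of the 8 with a positive log2 fold change (117 and 132 CPM). Of 10 Notch pathway genes 7 fell, among them Lfng, a modifier of Notch receptors, at -1.34. The part of these cells in the lower Srebf1, Elovl2 and Thrsp was not tested.

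The remaining lists overlapped more or were smaller. Summed microglia markers were 149.5 to 176 CPM without DAPT and 148.7 to 166 with it, and 1 of 9 fell (Cx3cr1, under 5 CPM and named after its value was seen). Those of myelinating oligodendrocytes were 242 to 361 and 306 to 338 CPM, and 1 of 8 fell (Mag). Of 8 markers of pericytes, smooth muscle and fibroblasts 2 rose and 4 fell, with sums of 117 to 139 CPM without DAPT and 98.3 to 119 with it. The 6 endothelial markers summed to only 4.66 to 6.08 CPM without DAPT and 4.45 to 6.26 with it. Of the 4 that could be tested, edgeR called none, and none had an adjusted p under 0.05.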

How the data were processed

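RNA was measured by sequencing in 12 libraries, 3 in each of 4 groups taken from the sample titles. The authors' notes name Trimmomatic for trimming, HISAT2 for alignment (mm10), StringTie for quantification and limma, without versions. The matrix deposited by the authors holds an estimated count for each gene, not normalized, and these were rounded to whole numbers. No value above 0 was whole, and values under 5 were multiples of 1 step per library (tolerance 0.05), so they are read as counts rebuilt from abundances. The edgeR and DESeq2 tests treat the rounded values as read counts, and their p values and intervals depend on that. The 1976 loci without a gene name (43.4 to 51.8% of counts) were left out.

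Genes were filtered with filterByExpr, scaled by TMM and tested with edgeR 4.0.16 (R 4.3.3) in a quasi-likelihood model with a mean for each group and 8 residual degrees of freedom. Adjusted p is Benjamini-Hochberg over 15656 genes, and a call needs this p under 0.05 together with at least a 1.25-fold difference. Intervals are widened to the Poisson bound that edgeR sets on p, where it applies. CPM are computed from these counts. limma 3.58.1 on log2(CPM + 2) after cyclic loess, DESeq2 1.42.0 and other settings were alternatives. Scripts were tested on simulated data. Counting error limits low genes. The members and lists were chosen with earlier results of these data known. Library values are given for called genes and for 10 genes picked by role. They are also given for up to 5 genes with an unadjusted p under 0.05 in an sErbB4 comparison. Of the other lists, at most 4 called genes are named, by size of change, with a mean of at least 5 CPM. Elovl5, Gfap, Cx3cr1, Vim and Gpr17 are named outside this rule, after their values were seen. Gene positions are from GENCODE M21, and motifs were searched in windows of 250 bases.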

Additional observations from a re-analysis of the deposited data

How the results depend on the processing

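Srebf1 was called under all alternatives in the 3 DAPT comparisons, with log2 fold changes between -1.25 and -1.07. With limma on log2(CPM + 2), 1 of the 36 genes was called for DAPT against vehicle (8.9% of all genes) and 1 for DAPT + sErbB4 against sErbB4 (9.09%). With unnamed loci kept, 1 was called for DAPT against vehicle (11.2%). With no fold limit, 11 were called for DAPT against vehicle (23.7% of all genes), 14 for DAPT + sErbB4 against sErbB4 (24.5%), 19 in the mean DAPT effect (37.8%) and 9 for sErbB4 against DAPT (20.9%). Leaving out 1 library at a time gave 2 to 3 genes for DAPT against vehicle (9.58 to 11.2% of all genes), with Scap added without DAPT 2 and Scd2 in place of Abca1 without Vehicle 3. It gave 1 to 5 genes for DAPT + sErbB4 against sErbB4 (10.2 to 12.6% of all genes), with 5 without sErbB4 2 (Abca1 and Acat2 added) and 1 without sErbB4 3 or DAPT + sErbB4 1. In the mean DAPT effect it gave 1 to 2 (12.1 to 14% of all genes), with 2 without Vehicle 3 or sErbB4 1 (Scd2 added) or sErbB4 2 (Abca1 added). The groups share replicate numbers, but the labels do not state that these numbers pair libraries, so they were not paired. Deviations of same-numbered libraries from their group means correlated at r -0.62 to 0.56 (18 pairs, median 0.028, 8 over 0.1). Such mixed values cannot decide whether these libraries belong together. With the replicate block, 2, 3 and 1 genes were called in the 3 DAPT comparisons (11.2%, 11.4% and 12.9% of all genes), as without it, and the block changed no other call of the 36. On the adjusted p alone, with the block Npc1 for DAPT against vehicle moved to 0.063 and Apoe in the mean DAPT effect to 0.048. Npc1 missed it in 9 of 15 alternatives (up to 0.16, without DAPT 3) and Dhcr7 in the mean DAPT effect in 5 of 20 (up to 0.056, also without DAPT 3). Scd2 missed the adjusted p in the mean DAPT effect in 7 of 20 alternatives (up to 0.083, with limma). Abca1 missed it for DAPT + sErbB4 against sErbB4 in 7 of 15 (up to 0.11, in a fit on the compared libraries alone).

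Mean DAPT effects near 0 changed sign. That of Hmgcs1 was 0.025 with limma and ran from -0.078 to 0.0074 when 1 library was left out, 0.0074 without sErbB4 3. That of Cyp46a1 ran from -0.0045 to 0.034, below 0 without Vehicle 1, that of Insig1 from -0.0054 to 0.025, below 0 without Vehicle 2, and that of Sqle from -0.00086 to 0.034, below 0 without sErbB4 1. The cause was not tested. For Tm7sf2 and Nr1h3, at under 5 CPM, the 95% interval of the mean DAPT effect reaches past the fold limit, so a change of that size is not excluded. The same holds, for example, for Scap, Scd2 and Acat2, whose estimates lie inside the limit.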
